A study of Mus musculus with 4 samples.

Results

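The genes described here encode the proteins of the mitochondrial ribosome. Their probe sets were those of the deposited table whose only platform gene symbol begins with Mrpl or Mrps followed by a number. There were 156 such probe sets of 45101 on the array, and they stood for 76 genes of 13379 tested. All 76 genes kept at least 1 probe set after the dimmest 40% of probe sets had been left out, and 140 of the 156 probe sets passed that filter. A further 4 probe sets carry an Mrp symbol together with that of another gene and were left out, so Mrpl30 and Mrpl53 have no member here. The symbols began with Mrpl in 47 genes and with Mrps in 29.

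Livers came from 4 male C57BL/6J mice, 12 weeks old, kept on normal chow and deprived of food for 24 h. There were 2 wild-type mice and 2 mice labelled Cnot3+/-, whose altered Cnot3 allele the labels do not describe further, and total RNA of each mouse was hybridised to 1 Affymetrix array. Each array is called by its genotype and its labelled replicate number, as in wild-type 1. Values are log2 expression values as deposited, differences are Cnot3+/- minus wild-type on that scale, and SE is limma's moderated standard error with n = 2 per group.

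Mitochondria carry their own ribosome, which translates the few mRNAs encoded by mitochondrial DNA, all of them for subunits of the respiratory chain and ATP synthase. Its proteins are encoded in the nucleus, made in the cytosol and imported, and they assemble on mitochondrial rRNA into a large and a small subunit. Some descend from proteins of bacterial ribosomes and others are found only in mitochondria. By structure 49 of the 76 genes belong to the large subunit and 26 to the small one. Mrps30 and Mrps18a are named for the small subunit and sit in the large one, and Mrps36 is now placed in the 2-oxoglutarate dehydrogenase complex and not in the ribosome.

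The promoters of these genes are shown because factors such as NRF1, GABPA and YY1 are known regulators of nuclear genes for mitochondrial proteins. Any part of these factors in the values of the arrays was not tested, and the shares were not set against those of other gene families. RefSeq windows on assembly GRCm38.p6, from 250 bases before to 50 bases after each start, were found for 67 of the 76 genes, 73 windows in all. On either strand the GABPA-type core CCGGAAG was in 34.2% of member windows, against 15.4% of the windows of all genes tested. The YY1-type core AANATGGC was in 28.8% against 7.55%, and the NRF1-type core, GCGCA and GCGC with 1 base of any kind between them, in 16.4% against 8.81%. At least 1 of these was in 61.6% of member windows and 27.5% of those of all genes tested, so many member windows hold none of them. Over every window of the RefSeq table the shares were lower, at 8.86% for the GABPA core, 6.05% for the YY1 core and 4.60% for the NRF1 core. The Sp1-type box GGGCGG (53.4% against 58.1%), the E-box CACGTG (9.59% against 9.55%), the NF-Y-type box CCAAT (39.7% against 37.1%) and the TBP-type box TATAAA (6.85% against 8.33%) had similar shares in members and in all genes tested. None of these spellings contains another, and a match of letters is a description, not a binding site. The median number of CpG pairs was 21 in member windows and 19 in those of all genes tested.

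**Figure D1:**
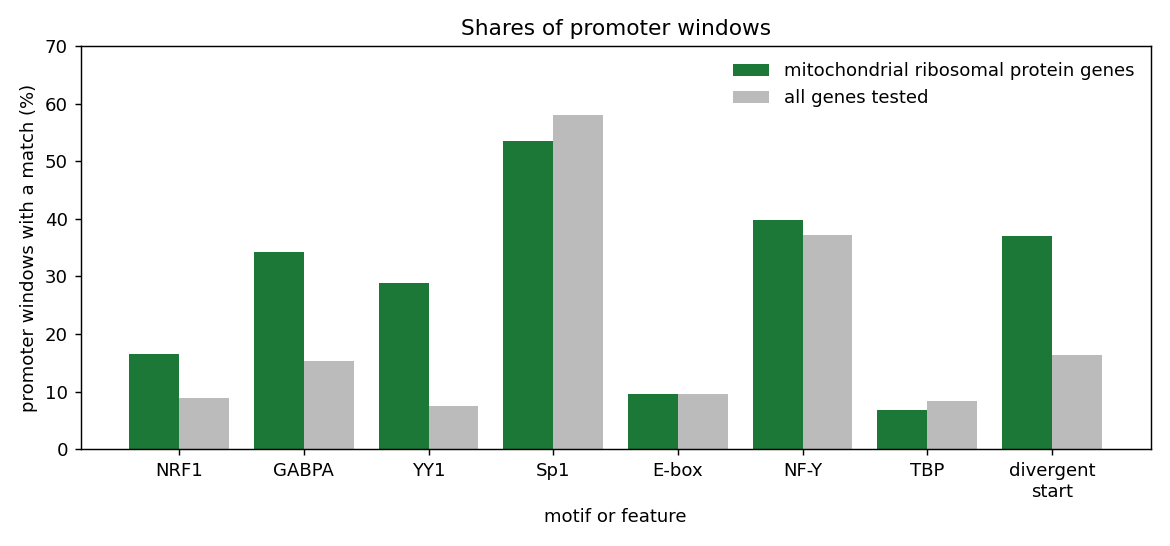
Percent of promoter windows that hold each motif on either strand, or a divergent start of another gene within 1000 bases, for the 73 windows of mitochondrial ribosomal protein genes (green) and the windows of all genes tested (grey). The YY1, GABPA, NRF1 and divergent-start shares are higher in the members, and the Sp1, E-box, NF-Y and TBP shares are close to those of all genes tested.

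The stretches printed here run from 150 bases before to 30 bases after the start, on GRCm38.p6, 5′ to 3′, with matches to the NRF1, GABPA and YY1 cores on either strand in capitals. Mrpl34 and Mrpl49 are shown as members lower in both Cnot3+/- arrays, Mrpl45 as the member higher in both, Mrps26 and Mrps27 as windows with more than 1 kind of match, and Mrps11 because its start faces that of another member.
Mrpl34, chr8:71464776-71464955, plus strand: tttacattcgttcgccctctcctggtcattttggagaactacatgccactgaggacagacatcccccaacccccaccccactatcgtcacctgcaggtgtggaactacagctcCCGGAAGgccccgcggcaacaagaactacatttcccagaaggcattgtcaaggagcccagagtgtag
Mrpl49, chr19:6057726-6057905, minus strand: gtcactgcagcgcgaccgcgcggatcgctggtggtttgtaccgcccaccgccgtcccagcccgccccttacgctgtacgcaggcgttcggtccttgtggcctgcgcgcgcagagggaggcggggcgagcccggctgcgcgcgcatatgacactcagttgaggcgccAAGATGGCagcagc
Mrpl45, chr11:97315566-97315745, plus strand: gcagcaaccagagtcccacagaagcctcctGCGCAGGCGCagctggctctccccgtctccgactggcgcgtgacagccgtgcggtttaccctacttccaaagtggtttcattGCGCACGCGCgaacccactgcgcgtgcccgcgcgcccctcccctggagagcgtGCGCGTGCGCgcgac
Mrps26, chr2:130563607-130563786, plus strand: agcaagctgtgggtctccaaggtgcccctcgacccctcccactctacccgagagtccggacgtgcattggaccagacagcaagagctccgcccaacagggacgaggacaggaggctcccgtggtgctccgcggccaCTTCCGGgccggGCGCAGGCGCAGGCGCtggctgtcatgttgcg
Mrps27, chr13:99344636-99344815, plus strand: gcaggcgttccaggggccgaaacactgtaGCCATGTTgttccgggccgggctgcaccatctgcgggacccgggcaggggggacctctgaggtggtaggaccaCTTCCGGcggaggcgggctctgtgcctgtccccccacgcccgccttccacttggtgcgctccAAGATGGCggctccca
Mrps11, chr7:78782981-78783160, plus strand: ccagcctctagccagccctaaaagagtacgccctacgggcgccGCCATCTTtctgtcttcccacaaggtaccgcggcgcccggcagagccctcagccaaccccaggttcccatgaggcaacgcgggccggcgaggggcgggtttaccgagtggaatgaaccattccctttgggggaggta
The capitals mark a GABPA core in Mrpl34, a YY1 core in Mrpl49, NRF1 cores in Mrpl45, a GABPA core followed by NRF1 cores in Mrps26, YY1 cores on both sides of a GABPA core in Mrps27, and a YY1 core in Mrps11. The other 4 members lower in both Cnot3+/- arrays, Mrps33, Mrps24, Mrpl50 and Mrpl10, have 0 matches in the same stretch. In the whole window Mrps33 and Mrps24 have 1 match each, and Mrpl50 and Mrpl10 have 0.

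No mitochondrial ribosomal protein gene passed the test between the genotypes. Of the 76 genes, 65 had a lower mean in the Cnot3+/- arrays and 11 a higher one, where 52.1% of all genes tested were lower and 47.9% higher. The differences were small, from -0.36 for Mrpl15 to 0.12 for Mrps11, with a median of -0.09 against -0.01 over all genes tested. The number with a limma adjusted p below 0.05 was 0 of 76, beside a background of 0.0149% (2 of 13379 genes), and the number with an unadjusted p under 0.05 was also 0, beside 3.59%. The smallest limma adjusted p among the members was 0.999. The 95% confidence interval lay between -1 and 1 for all 76 genes, so a change by a factor of 2 was outside each of them, and it lay between -0.50 and 0.50 for 25.

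The median difference rested on single arrays. With wild-type 1 left out it was 0.04, with 51 of 76 genes higher, and with wild-type 2 left out it was -0.25, with 74 lower. Leaving out Cnot3+/- 2 gave -0.006, with 38 genes on each side, and leaving out Cnot3+/- 1 gave -0.19. It stayed below 0 under the other scalings tried, at -0.13 after quantile normalization and -0.12 with arrays centred on their medians.

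**Figure D2:**
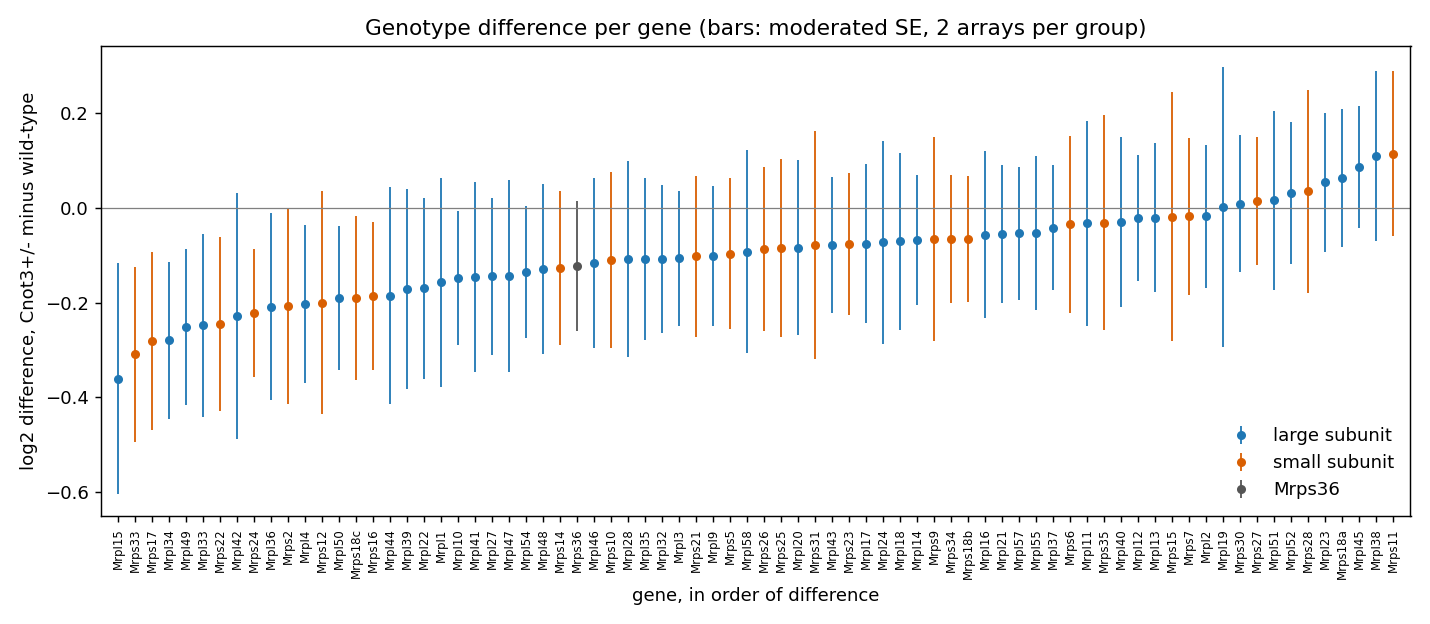
Log2 difference, Cnot3+/- minus wild-type, for each of the 76 genes in order of difference, with bars of the moderated SE (2 arrays per group), coloured by subunit. The points run from -0.36 (Mrpl15) to 0.12 (Mrps11), and none passed the test.

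The members moved together from array to array, and more within a genotype than between genotypes. Relative to each gene's wild-type mean, the median over the 76 genes was 0.14 and -0.14 on the wild-type arrays, -0.01 on Cnot3+/- 1 and -0.19 on Cnot3+/- 2. Wild-type 1 was the highest of the 4 arrays for 62 genes (81.6%, against 29.8% of all genes tested), and Cnot3+/- 2 the lowest for 50 genes (65.8% against 27.8%). The groups therefore overlapped, with Cnot3+/- 1 between the wild-type arrays.

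Wild-type 1 exceeded wild-type 2 in 71 genes (93.4%, against a background of 49.5%), by a median of 0.27. Cnot3+/- 1 exceeded Cnot3+/- 2 in 67 genes (88.2% against 51.2%), by a median of 0.20. Both held for 64 genes, or 84.2% of the members, against 28.8% of all genes tested. In 73 of the 76 genes the larger of these gaps exceeded the difference between the genotypes, which was so in 79.8% of all genes tested. Mrps24, Mrpl34 and Mrpl45 were the exceptions.

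**Figure D3:**
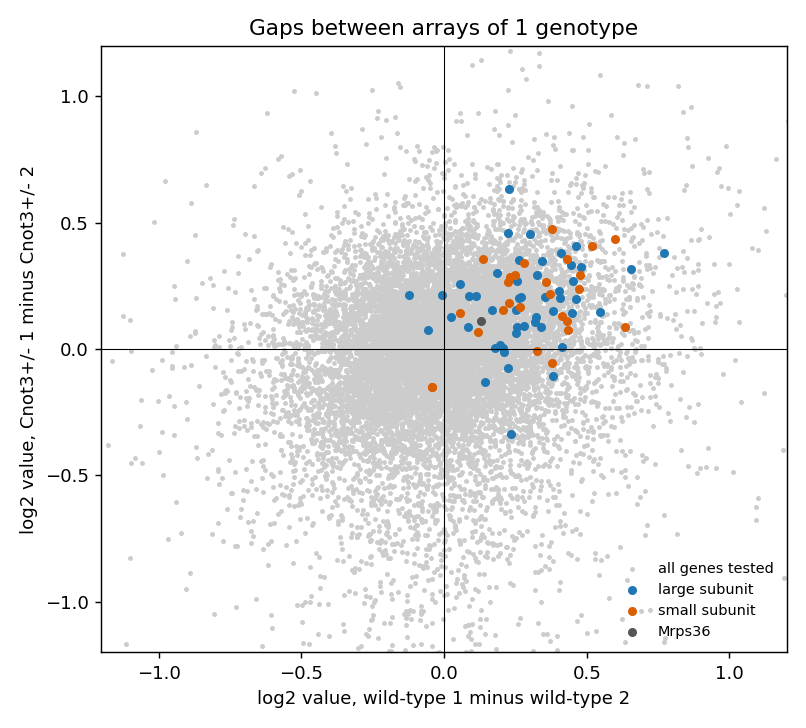
Gap between the wild-type arrays (x axis, log2) against the gap between the Cnot3+/- arrays (y axis, log2) for each gene, with all genes tested in grey and members coloured by subunit; 338 genes lie outside the plotted range. Of the 76 members, 64 lie at the upper right, above 0 on both axes.

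Other measures also differed between the arrays, not all in the order of the members. In the list of macrophage markers, 18 of 19 genes were higher in the Cnot3+/- mean. Relative to the wild-type mean, their median was -0.29 on Cnot3+/- 1 and 1.63 on Cnot3+/- 2. Both Cnot3+/- arrays lay above both wild-type arrays in 4 of them, beside 14.1% of all genes tested, and below in 1, beside 17.4%. Their summed linear value was 6308 and 6912 on the wild-type arrays, 5608 on Cnot3+/- 1 and 20722 on Cnot3+/- 2, with none at 0. The sum on Cnot3+/- 2, where the members were lowest, was 2.998 times that of wild-type 2 and 3.70 times that of Cnot3+/- 1. The wild-type arrays, which differed for the members, had similar sums. Of the 13 hepatocyte markers tested 10 were higher in the Cnot3+/- mean, with a median of 0.07, and in 5 both Cnot3+/- arrays lay above both wild-type arrays, beside 14.1% of all genes tested. These markers summed to between 171767 and 184270, and their mean log2 values ran from 10.4 to 14.8. For the Gapdh control the 3′ signal exceeded the 5′ signal, in log2, by 0.11 and 0.25 on the wild-type arrays, by 0.19 on Cnot3+/- 1 and by 0.31 on Cnot3+/- 2, the reverse of the order of the members' medians. For Actb, in the order of arrays just used, the excess was 1.46, 1.54, 1.60 and 1.49. The part of these in the members' values was not tested, and in whole liver fewer cells of a type and less RNA per cell cannot be told apart. Cnot3 itself stood at 7.48 and 8.14 in wild-type and at 7.70 and 7.86 in Cnot3+/- (difference -0.03, SE 0.25). Its probe set thus did not bear out the genotype labels. The part of Cnot3 that this probe set reads, relative to the altered allele, is not known here. Every direction rests on the arrays as labelled.

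**Figure D4:**
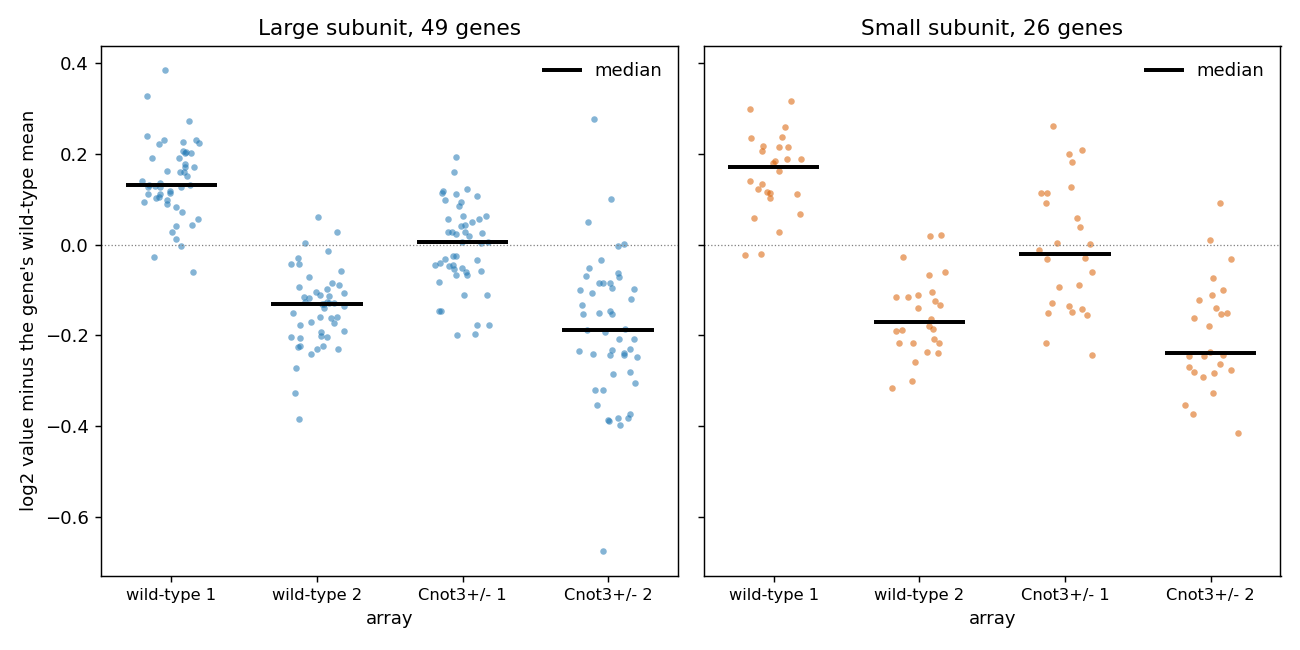
Log2 value minus the gene's wild-type mean on each of the 4 arrays, for the 49 large subunit genes (left) and the 26 small subunit genes (right); points are genes, spread sideways for visibility, and black lines are medians. In both subunits wild-type 1 has the highest median and Cnot3+/- 2 the lowest, with Cnot3+/- 1 above wild-type 2; by construction the wild-type points mirror each other about 0.

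The large and the small subunit had alike values. In the large subunit 41 of 49 genes were lower, with a median difference of -0.09, and in the small subunit 23 of 26, with a median of -0.08. Array medians relative to the wild-type mean were 0.13, -0.13, 0.01 and -0.19 for the large subunit and 0.17, -0.17, -0.02 and -0.24 for the small one, with the wild-type arrays first. Proteins with a bacterial homologue were lower in 40 of 45 genes (median -0.10), and those found only in mitochondria in 24 of 30 (median -0.08). No test of a difference between these classes was made.

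In 6 members both Cnot3+/- arrays lay below both wild-type arrays, beside a background of 17.4% of all genes tested, and in 1 member they lay above, beside 14.1%. Neither count exceeded the background share, and none of these genes was called. After quantile normalization 17 members were separated downward and 0 upward, beside 20.1% and 12.1% of all genes, and with arrays centred on their medians 9 and 0, beside 21.3% and 10.7%. With wild-type 1 left out 8 were separated downward and 21 upward, beside 32.8% and 28.5%. With wild-type 2 left out these numbers were 62 and 1, beside 36.7% and 32.6%. Leaving out Cnot3+/- 1 gave 50 and 3, beside 36.3% and 31.8%, and leaving out Cnot3+/- 2 gave 11 and 10, beside 33.8% and 30.1%.

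Among small subunit members, Mrps33, a protein found only in mitochondria, stood at 9.40 and 8.99 in wild-type and at 8.95 and 8.82 in Cnot3+/-. Wild-type 1 was well above the other 3 arrays, which lay close together. It differed by -0.31 (SE 0.18), or by -0.10 once wild-type 1 was left out. Mrps24, the homologue of the bacterial protein S3 near the mRNA entry site, stood at 10.20 and 10.14 in wild-type and at 10.02 and 9.88 in Cnot3+/-. Here the wild-type arrays agreed closely, unlike those of most members. Its difference was -0.22 (SE 0.14) and ran from -0.29 to -0.15 as each array was left out. Its probe set is of the _s_at kind, which can match several transcripts.

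Among large subunit members, Mrpl34, with the GABPA core shown in its promoter, stood at 9.43 and 9.16 in wild-type and at 9.11 and 8.91 in Cnot3+/-. Its gaps within the genotypes were 0.27 and 0.21, and wild-type 2 lay next to Cnot3+/- 1. Its difference was -0.28 (SE 0.16), from -0.41 to -0.14 with an array left out. Mrpl49, found only in mitochondria and with the YY1 core shown, stood at 7.98 and 7.66 in wild-type and at 7.62 and 7.51 in Cnot3+/-. Wild-type 2 lay next to the Cnot3+/- arrays. It differed by -0.25 (SE 0.16), or by -0.09 once wild-type 1 was left out. Mrpl50, also found only in mitochondria, stood at 8.60 and 8.34 in wild-type and at 8.33 and 8.24 in Cnot3+/- (difference -0.19, SE 0.15, and -0.06 without wild-type 1). Mrpl10, which forms the base of the stalk that recruits translation factors, stood at 9.12 and 8.92 in wild-type and at 8.88 and 8.87 in Cnot3+/-. It differed by -0.15 (SE 0.14), or by -0.04 once wild-type 1 was left out, so for both genes the groups were separated by a narrow margin.

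Mrpl45 was the member higher in both Cnot3+/- arrays. It encodes a large subunit protein near the exit of the nascent chain tunnel that helps tie the ribosome to the inner membrane. It stood at 8.35 and 8.40 in wild-type and at 8.50 and 8.43 in Cnot3+/-, with gaps inside each genotype of under 0.1. Its difference was 0.09 (SE 0.13, 95% confidence interval -0.24 to 0.42), and the groups overlapped after quantile normalization and with arrays centred on their medians.

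Some members had larger differences but overlapping groups. Mrpl15, the homologue of bacterial L15, had the largest difference of all members at -0.36 (SE 0.24). Its wild-type values were 9.93 and 9.70, and its Cnot3+/- values 9.77 and 9.14. The low value of Cnot3+/- 2 set it apart, and the difference was -0.04 without that array. A brighter Mrpl15 probe set of the _x_at kind, not used for the gene, differed by -0.25 (SE 0.16). On it both Cnot3+/- arrays lay below both wild-type arrays, and the other Mrpl15 probe sets are described below. Mrps17, Mrpl33 and Mrps22, taken here for the size of their values after these were seen, differed by -0.28 (SE 0.19), -0.25 (SE 0.19) and -0.24 (SE 0.18). In each of them wild-type 1 was highest and Cnot3+/- 2 lowest, and once wild-type 1 was left out the differences were -0.10, -0.024 and -0.060.

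The widest gaps within a genotype were found in Mrpl19, Mrpl42, Mrps12 and Mrpl15. Mrpl19, a large subunit protein with a bacterial homologue, stood at 7.32 in wild-type 1 and 6.55 in wild-type 2, and at 7.12 and 6.74 in Cnot3+/-. Both Cnot3+/- values lay inside the wild-type range, and the difference was 0.00 (SE 0.30). A brighter Mrpl19 probe set of the _s_at kind, not used for the gene, differed by -0.20 (SE 0.19). It had wild-type 1 highest and overlapping groups. Mrpl42 stood at 10.34 and 9.68 in wild-type and at 9.94 and 9.62 in Cnot3+/- (difference -0.23, SE 0.26). Mrps12, the homologue of the bacterial decoding-site protein S12, stood at 9.60 and 8.97 in wild-type and at 9.13 and 9.04 in Cnot3+/- (difference -0.20, SE 0.24), on a probe set of the _s_at kind. For Mrpl42 and Mrps12 the difference turned to 0.10 and 0.12 without wild-type 1.

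Members around the stalk, the peptidyl transferase centre and the exit tunnel, taken for their place in the ribosome, were not called, and apart from Mrpl10 and Mrpl45, described above, their groups overlapped. Mrpl12, whose protein forms the mobile stalk, stood at 10.10 and 10.08 in wild-type and at 10.13 and 10.00 in Cnot3+/- (difference -0.02, SE 0.13), and all 4 values lay within 0.13 of each other. Mrpl11, at the stalk base, stood at 8.95 and 8.40 in wild-type and at 8.72 and 8.57 in Cnot3+/- (difference -0.03, SE 0.22). Its wild-type arrays enclosed both Cnot3+/- values. The tunnel proteins Mrpl22, Mrpl23 and Mrpl24 differed by -0.17 (SE 0.19), 0.05 (SE 0.15) and -0.07 (SE 0.21). Mrpl3, close to the peptidyl transferase centre, differed by -0.11 (SE 0.14), and Mrpl58, a peptidyl-tRNA hydrolase built into the large subunit, by -0.09 (SE 0.21). Mrps2, a small subunit protein with a bacterial homologue, differed by -0.21 (SE 0.21).

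Members with the brightest and the dimmest probe sets were not called either. Mrpl39 and Mrpl51, on bright probe sets, differed by -0.17 (SE 0.21) and 0.02 (SE 0.19). Mrpl38, on a dim probe set, stood at 5.65 and 5.41 in wild-type and at 5.47 and 5.81 in Cnot3+/- (difference 0.11, SE 0.18), with Cnot3+/- 2 highest, which went against most members. A brighter Mrpl38 probe set of the _s_at kind, not used for the gene, had wild-type 1 highest and differed by 0.03 (SE 0.13). Mrps27 stood between 6.28 and 6.43 on all 4 arrays (difference 0.02, SE 0.14), and Mrpl54 differed by -0.14 (SE 0.14).

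The proteins whose place differs from their name had values among those of the others. Mrps30 differed by 0.01 (SE 0.14) and Mrps18a by 0.06 (SE 0.15). Mrps36 stood at 8.11 and 7.98 in wild-type and at 7.98 and 7.87 in Cnot3+/- (difference -0.12, SE 0.14). Mitochondrial ribosomal proteins with other names were not members and gave 4 tested genes. Dap3, a GTP-binding small subunit protein, differed by 0.09 (SE 0.19), Chchd1 by -0.15 (SE 0.15), the pentatricopeptide repeat protein gene Ptcd3 by -0.15 (SE 0.16), and Gadd45gip1, of the large subunit, by 0.06 (SE 0.13), with both Cnot3+/- arrays above both wild-type arrays.

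Over all 156 probe sets, fitted among all 45101 with no filter, 0 had a limma adjusted p below 0.05, beside a background of 0.00443%, and 2 had an unadjusted p under 0.05, beside 3.9%. Differences ran from -0.63 to 0.26 with a median of -0.10, and 131 probe sets were lower. A second probe set past the filter was present for 37 genes, and 52 of these 64 probe sets were lower. The 16 probe sets below the filter differed by between -0.31 and 0.20. In Mrpl15 and Mrpl35 the probe sets of 1 gene lay over 0.5 apart. The dimmest of 3 probe sets of Mrpl35, with -0.63 (SE 0.23), stood at 4.65 and 4.53 in wild-type and at 4.27 and 3.65 in Cnot3+/-. Another dim one differed by -0.25 (SE 0.18) with overlapping groups, and the bright one used for the gene by -0.11 (SE 0.17). For Mrpl15 the bright probe sets lay between -0.36 and -0.25, and dim ones between -0.50 and 0.01. In 5 of its 8 probe sets both Cnot3+/- arrays lay below both wild-type arrays. Among all genes tested, each with 1 probe set, this was so in 17.4%, which is a share of genes and not of probe sets. The 8 probe sets of Mrpl15 read 1 gene on the same 4 arrays, and some are of the _x_at kind, so they are not independent.

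Many members share their promoter region with a gene on the other strand. Another gene started within 1000 bases upstream on the opposite strand in 37.0% of the 73 member windows, against 16.3% of the windows of all genes tested. Mrpl46 and Mrps11, of the large and the small subunit, face each other in this way, with their starts so close that the larger portion of the stretch printed for Mrps11, the YY1 core included, lies after the start of Mrpl46. The window of Mrpl46 itself holds 0 matches to the 3 cores. Mrpl46 stood at 8.54 and 8.16 in wild-type and at 8.31 and 8.15 in Cnot3+/- (difference -0.12, SE 0.18). Mrps11 stood at 7.50 and 7.25 in wild-type and at 7.64 and 7.35 in Cnot3+/- (difference 0.12, SE 0.17). Both were higher in replicate 1 of each genotype, and neither difference exceeded its SE.

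Other members face genes with mitochondrial roles. Mrps12 faces Sars2, the mitochondrial seryl-tRNA synthetase gene, which stood at 6.12 and 6.51 in wild-type and at 6.26 and 6.62 in Cnot3+/-. Sars2 was thus lower in replicate 1 of each genotype, where Mrps12 was higher. Mrpl43 (difference -0.08, SE 0.14) faces Twnk, the mitochondrial DNA helicase gene (-0.16, SE 0.14), and Mrps27 faces Ptcd2 (-0.05, SE 0.13). Of the 20 partner genes tested that are not members themselves, 7 were higher in replicate 1 of both genotypes, beside 28.8% of all genes tested.

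Genes that act with the mitochondrial ribosome gave 0 calls as well. Among the 24 assembly factors tested 15 were lower, with a median of -0.06. The rRNA methyltransferase genes Tfb1m and Mrm2 differed by -0.35 (SE 0.16) and -0.32 (SE 0.17). Among 11 mitochondrial translation factors 8 were lower, with a median of -0.12, where 52.1% of all genes tested were lower. Both Cnot3+/- arrays lay below both wild-type arrays in 6 of the 11, beside 17.4% of all genes tested. For Tsfm the margin was narrow, with 6.9889 in wild-type 2 and 6.9883 in Cnot3+/- 1. Separation downward was seen in 5 of the 24 assembly factors and 3 of 20 tRNA charging genes. It was also seen in 3 of 22 genes of mitochondrial DNA upkeep, transcription and RNA processing. Upward separation was seen in 0, 1, 3 and 2 genes of these 4 lists, beside 14.1% of all genes tested. Mtfmt, which formylates the initiator tRNA, stood at 6.99 and 6.57 in wild-type and at 6.54 and 6.08 in Cnot3+/- (difference -0.47, SE 0.23, or -0.13 with its probe sets averaged). Guf1, an elongation factor of the mitochondrion, differed by -0.36 (SE 0.15) on a dim probe set. Among 20 genes for mitochondrial tRNA charging 8 were lower and 12 higher, with a median of 0.04. Qrsl1, a subunit of the enzyme that makes glutaminyl-tRNA, differed by -0.41 (SE 0.14), also on a dim probe set. Hars2, the histidyl-tRNA synthetase, differed by -0.33 (SE 0.15), or by -0.14 with its probe sets averaged.

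Genes of mitochondrial DNA upkeep, transcription and RNA processing were lower in 16 of 22 cases, with a median of -0.09. Tfam, the packaging and transcription factor of mitochondrial DNA, stood at 8.80 and 8.78 in wild-type and at 8.62 and 8.48 in Cnot3+/- (difference -0.24, SE 0.13). The transcription elongation factor gene Tefm differed by -0.36 (SE 0.28), or by -0.035 once wild-type 1 was left out, and Ptcd1 by 0.43 (SE 0.14). Of 13 nuclear regulators of mitochondrial genes 9 were higher. Ppargc1a, a coactivator of mitochondrial biogenesis, stood at 5.63 and 6.44 in wild-type and at 7.29 and 7.04 in Cnot3+/- (difference 1.13, SE 0.29, limma adjusted p = 0.999). Its order over the arrays differed from that of the members, since wild-type 1 was lowest. Gabpa stood at 8.49 and 8.56 in wild-type and at 8.37 and 8.20 in Cnot3+/- (difference -0.24, SE 0.14). Its partner gene Gabpb1 differed by -0.41 (SE 0.27), or by -0.042 once Cnot3+/- 1 was left out, and Nrf1 by 0.01 (SE 0.14).

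Cytosolic ribosomal proteins, the family most alike in function, showed nearly the same values over the arrays. Of 42 genes 37 were lower, with a median difference of -0.10. Both Cnot3+/- arrays lay below both wild-type arrays in 8 of the 42, a share close to the 17.4% of all genes tested. Their array medians relative to the wild-type mean were 0.10, -0.10, -0.03 and -0.18, and 30 genes (71.4%) were higher in replicate 1 of both genotypes. No test of a difference between the families was made, and no value is given here as particular to the mitochondrial ribosome.

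**Figure D5:**
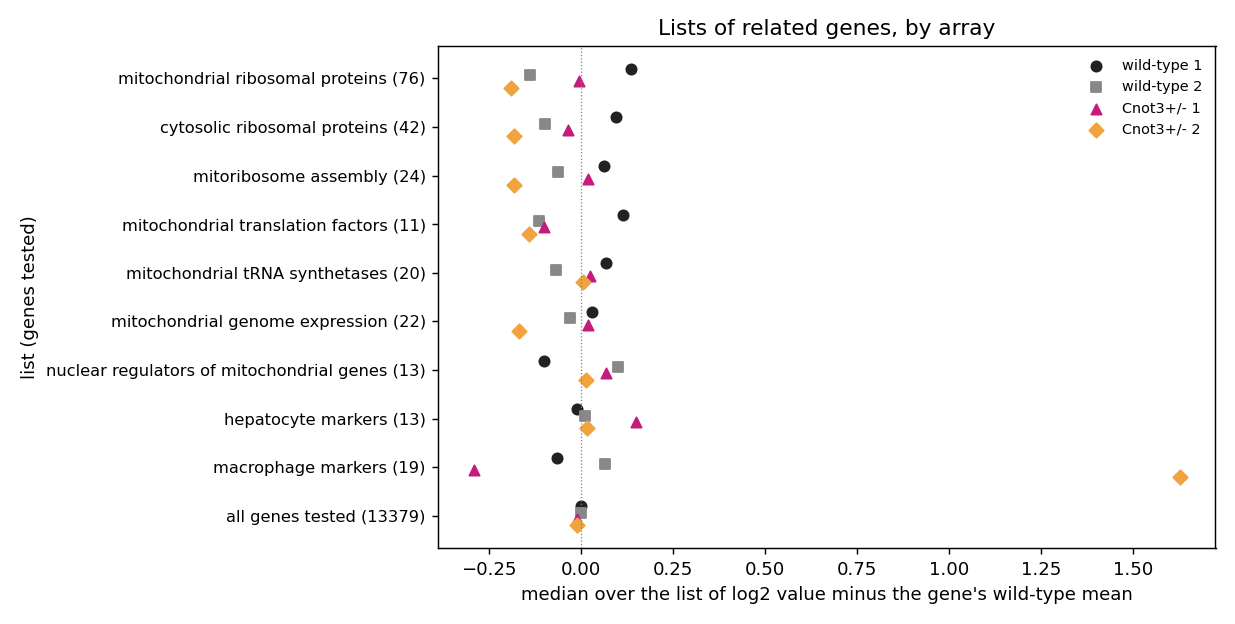
Median over each gene list of the log2 value minus the gene's wild-type mean, for each of the 4 arrays; the number of genes tested is in brackets. Mitochondrial and cytosolic ribosomal proteins, assembly factors, translation factors and mitochondrial genome expression genes are highest in wild-type 1 and lowest in Cnot3+/- 2. Macrophage markers stand at 1.63 in Cnot3+/- 2.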

How the data were processed

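The deposited table holds the authors' log2 expression values per probe set. The submitters' processing notes name RMA, without the set of arrays it was run over. RMA tends to compress differences of dim probe sets. That the scale is log2 was judged from a range of 1.85 to 14.96, with array medians between 4.62 and 4.66. Probe sets were named through the platform annotation, and all 76 member genes matched a gene of assembly GRCm38.p6 with the same symbol.

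No further normalization was applied. The 40% of probe sets that were dimmest on average (up to 4.06) were left out, and each gene was represented by its brightest probe set, with _x_at or _s_at ones used only where a gene had no other (3 members). The genotypes were compared over 13379 genes with limma 3.58.1 (R 4.3.3; lmFit and eBayes, two-sided, no covariate), with Benjamini-Hochberg adjustment over all genes and a threshold of 0.05. The fit had 2 residual degrees of freedom and a prior of 3.17, and was checked on simulated data. The planted differences were larger than that of any member and the noise was independent between genes. The check therefore does not cover differences of the members' size or shifts shared by many genes. The labels call the mice biological replicates, and their number limits the precision of every value.

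Named members are those separated between genotypes (up to 8 a direction), the 5 brightest and 3 dimmest probe sets, the 4 widest gaps within a genotype, genes whose probe sets lie over 0.5 apart, those misplaced by name, the other-named proteins and up to 2 genes per related list; Mrps2, Mrps11, Mrps17, Mrps22, Mrpl3, Mrpl11, Mrpl22, Mrpl23, Mrpl33, Mrpl43, Mrpl46, Mrpl58, Sars2, Twnk and Ptcd2 were added after their values were seen. Members, lists and motif letters were chosen with earlier results of these data known. Brightness was not compared between probe sets as abundance.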

Additional observations from a re-analysis of the deposited data

How the results depend on the processing

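No mitochondrial ribosomal gene or probe set was called under any alternative tried, and with 2 arrays per group small shifts of this size cannot be resolved. The number of genes called over the whole table was 0 with the replicate block (replicate number as a term), against 2 without it, and 2 other genes were called with no moderation of variances. The replicate numbers were not shown to pair the mice: deviations of same-numbered arrays correlated at 0.159 across genes, and the block changed no call of a member (smallest limma adjusted p 0.827). After quantile normalization 5 members were higher and 0 were separated upward and 17 downward, where 12.1% and 20.1% of all genes were; with arrays centred on the median 6 were higher and 0 were separated upward. Leaving out 1 array gave 0 to 38 genes called over the table, 2 to 51 members higher, 1 to 21 separated upward and 8 to 62 downward; 1 array against 2 separates more easily (28.5% to 32.6% of all genes upward and 32.8% to 36.7% downward). The median difference then ran from -0.25 to 0.035, from -0.25 to 0.046 in the large subunit and from -0.25 to 0.029 in the small one.

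Single genes whose sign turned were mostly close to 0. With probe sets averaged, the differences were -0.093 for Mrpl51, -0.088 for Mrpl19, 0.055 for Mrpl58 and 0.040 for Cnot3. After quantile normalization they were -0.010 for Mrpl51, -0.0069 for Mrps27, -0.042 for Mrpl19, -0.028 for Mrps30 and -0.014 for Nrf1. With centred arrays they were -0.018 for Mrpl51, -0.019 for Mrps27, -0.033 for Mrpl19, -0.025 for Mrps30 and -0.028 for Nrf1. With 1 array left out, differences ran from -0.40 to 0.057 for Mrpl39, -0.29 to 0.15 for Mrpl24, -0.085 to 0.043 for Mrpl12, -0.19 to 0.22 for Mrpl51, -0.058 to 0.28 for Mrpl38, -0.061 to 0.091 for Mrps27, -0.38 to 0.39 for Mrpl19, -0.55 to 0.10 for Mrpl42, -0.52 to 0.12 for Mrps12, -0.24 to 0.027 for Mrpl35, -0.095 to 0.11 for Mrps30 and -0.047 to 0.18 for Mrps18a. They ran from -0.12 to 0.30 for Dap3, -0.093 to 0.11 for Nrf1, -0.36 to 0.30 for Cnot3, -0.44 to 0.029 for Mrps2, -0.21 to 9.5e-05 for Mrpl3, -0.30 to 0.24 for Mrpl11, -0.37 to 0.032 for Mrpl22, -0.051 to 0.16 for Mrpl23, -0.30 to 0.11 for Mrpl58, -0.31 to 0.074 for Mrpl46, -0.031 to 0.26 for Mrps11, -0.18 to 0.029 for Mrpl43 and -0.070 to 0.32 for Sars2. Without a turn of sign, differences with 1 array left out still moved by over 1.5 times for other genes, from -0.46 to -0.10 for Mrps17, -0.47 to -0.024 for Mrpl33, -0.43 to -0.060 for Mrps22, -0.19 to -0.056 for Mrps36, -0.21 to -0.063 for Mrpl54, -0.24 to -0.047 for Chchd1, -0.27 to -0.036 for Ptcd3, -0.71 to -0.24 for Mtfmt, -0.45 to -0.21 for Hars2, -0.69 to -0.035 for Tefm and -0.77 to -0.042 for Gabpb1. The same held for Tfb1m (-0.49 to -0.20), Mrm2 (-0.48 to -0.17), Ppargc1a (0.73 to 1.54) and Gabpa (-0.32 to -0.16). It held as well for Twnk (-0.24 to -0.086), Ptcd2 (-0.083 to -0.012) and Mrpl45 (0.050 to 0.12), and for members whose values with an array left out are given above. The cause of these changes was not tested.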
